A study of Mus musculus with 6 samples.

Results

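Matrix metalloproteinases (MMPs) are zinc-dependent proteases that cleave the proteins of the extracellular matrix. The genes described here, chosen by name as a family that includes Mmp9, were followed in endothelial cells sorted from mammary glands with and without Ets2 in the surrounding fibroblasts. They are Mmp2, Mmp3, Mmp8, Mmp9, Mmp11, Mmp12, Mmp13, Mmp14, Mmp15 and Mmp19. Of these 10 genes, 9 had at least 1 probe set named for them, out of 18193 genes so represented, and no probe set was named for Mmp15 in the annotation used here. All mice were FVB/N animals aged 9 weeks and carried the PyMT oncogene, which drives mammary tumors from the epithelium. All also carried Ets2db, a germline knockout allele that removes the DNA-binding domain of this Ets family transcription factor, over a conditional loxP allele. The 3 control samples had the genotype PyMT;Ets2db/loxP and thus kept 1 functional allele. In the 3 deleted samples, of genotype PyMT;Fsp-cre;Ets2db/loxP, that allele was removed by a Cre recombinase under the Fsp1 promoter, which is active in fibroblasts. Fsp1 can also be expressed by some other cells, and recombination in the sorted cells was not measured here. The source field of the control samples speaks of no oncogene, but PyMT is named in their titles and genotypes, which were followed.

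MMPs are made as inactive proenzymes, opened by other proteases such as plasmin or furin, and held in check by tissue inhibitors (TIMPs). In the mammary gland they act in ductal branching and involution, and in tumors they clear basement membrane ahead of sprouting vessels and release growth factors bound to the matrix. Much of this activity comes from stromal and inflammatory cells, although endothelial cells make several MMPs themselves. The comparison addressed whether the loss of Ets2 from fibroblasts went with other levels of these transcripts in the endothelial fraction.

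Total RNA from cells sorted with an antibody to CD31 was read on 6 Affymetrix arrays, 1 per sample, and each value below is a log2 signal after Robust Multichip Average (RMA) processing. Differences are given as deleted minus control means on that log2 scale, so that 1 unit is a 2-fold change. The signal of one probe set cannot be ranked against that of another. The median of all probe sets, 7.03, only marks which are dim. All 12 endothelial markers lay above this median, with Pecam1, which encodes CD31, between 10.83 and 11.93. Transcripts of other cells were bright as well. The epithelial keratin Krt8 read 13.45 to 14.15, the collagen gene Col1a1 11.97 to 12.71 and the leukocyte gene Ptprc 8.30 to 9.40. In such a mixture fewer cells of a type and less RNA per cell cannot be told apart. On the first principal component control replicate 3 lay furthest from the other arrays (score 70.2), and it held the lowest summed level of the endothelial markers.

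No MMP gene passed the test, and on every one of the 14 probe sets the control and deleted arrays overlapped. limma called 0 of the 9 measured genes at an adjusted p under 0.05, against 0.0% of all 45037 probe sets, and each member had an adjusted p of 0.9999. The thresholds of the study, a change of more than 2-fold at an unadjusted p under 0.05, were reached by 0 of the 9, against 0.129% of all probe sets. At an unadjusted p under 0.05 stood 1 probe set of 14, that of Mmp12, against 2.07% of all probe sets, or 1.1% counting the lower ones alone. Groups without overlap were found for 0 of the 14, against 6.44% of all probe sets. The mean was lower in the deleted group for 6 of the 9 genes and higher for 3, where 49.1% of all genes were lower. Their median difference was -0.29, beside 0.00 for all genes, and the median size of the difference was 0.32, beside 0.11 for all genes. The median difference depended on single arrays, as it shrank to -0.074 without deleted replicate 1 and to -0.098 without control replicate 3 and reached -0.43 without control replicate 2. Mmp12 was the lowest of them, at -0.89, and Mmp9 the highest, at 0.73.

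**Figure D1:**
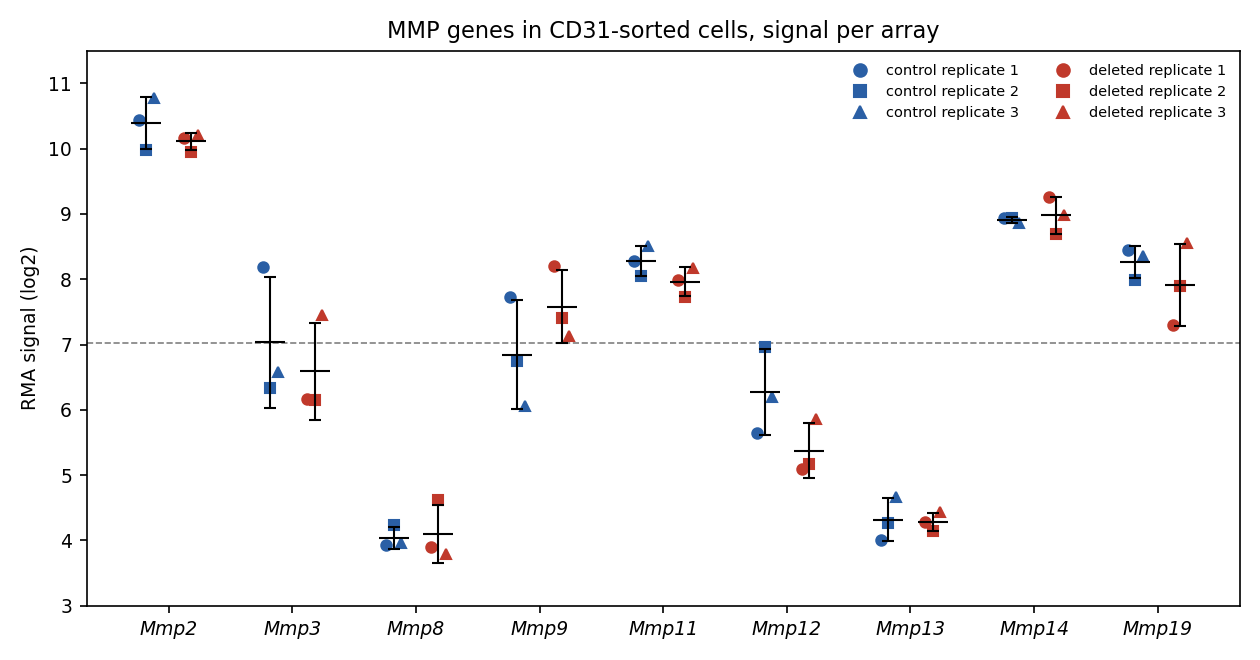
RMA signal (log2, vertical axis) of the 9 measured MMP genes on each array, at the probe set with the highest mean, with control arrays in blue, deleted arrays in red, a different marker shape for each replicate, and black bars giving mean ± SD over the 3 arrays of a group. The dashed line is the median of all probe sets, 7.03. The groups overlap for every gene, with the control points of Mmp9 spread from 6.06 to 7.73 and those of Mmp12 from 5.65 to 6.96.

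Mmp9 and Mmp2 encode the gelatinases, which digest denatured collagen and the type IV collagen of basement membranes. Mmp9, gelatinase B, is known for freeing matrix-bound VEGF in tumors. Its signal in control replicates 1, 2 and 3 was 7.73, 6.75 and 6.06, and in deleted replicates 1, 2 and 3 it was 8.20, 7.41 and 7.13. The highest array was deleted replicate 1 and the lowest control replicate 3, but control replicate 1 read above 2 of the 3 deleted arrays. The control mean was 6.85 ± 0.84 (SD, n = 3) and the deleted mean 7.58 ± 0.56 (SD, n = 3). The difference of 0.73 had an SE of 0.45 and a 95% interval from -0.33 to 1.80, which corresponds to a deleted level 1.66 times the control level, with limits of 0.795 and 3.48. limma gave an unadjusted p of 0.148, and an exact two-sided permutation test gave p = 0.3, where 3 arrays against 3 allow no p below 0.1. The difference remained positive with any array left out. It shrank to 0.34 once control replicate 3 was left out and to 0.42 once deleted replicate 1 was, and it grew to 1.18 without control replicate 1, where limma's unadjusted p was 0.018.

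A second, dimmer probe set of Mmp9 ran the same way by less. It read 6.15, 5.64 and 5.68 in the control arrays and 6.38, 6.27 and 5.72 in the deleted arrays. Deleted replicate 3 lay among the control values here, and the difference of 0.30 had a 95% interval from -0.24 to 0.84. The mean over both probe sets differed by 0.52.

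Mmp2, gelatinase A, is made chiefly by mesenchymal cells. Its brighter probe set read 10.43, 9.98 and 10.77 in the control arrays and 10.17, 9.96 and 10.21 in the deleted arrays. Control replicates 1 and 3 were above all deleted arrays, whereas control replicate 2 lay inside their range. The difference was -0.29 (SE 0.22), with a 95% interval from -0.80 to 0.23, and the other probe set of Mmp2 differed by -0.31. Without control replicate 2 the difference grew to -0.49, at an unadjusted p of 0.045 from limma, and without control replicate 3 it shrank to -0.10.

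Mmp3 and Mmp11 belong to the stromelysins by name. Mmp3 cleaves matrix proteins and can open the proenzymes of other MMPs, while Mmp11 has little activity on matrix and is known from the fibroblasts around carcinomas. Mmp3 read 8.18, 6.33 and 6.59 in the control arrays and 6.17, 6.15 and 7.45 in the deleted arrays. One array of each group, control replicate 1 and deleted replicate 3, stood well above the others. The difference of -0.44 (SE 0.55) had the widest interval among the 9 genes, from -1.75 to 0.86, and it turned to 0.13 without control replicate 1 and reached -0.87 without deleted replicate 3.

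Mmp11 varied less. Its signal was 8.28, 8.05 and 8.51 in the control arrays and 7.99, 7.73 and 8.17 in the deleted arrays. Only deleted replicate 3 exceeded the lowest control array, and the means were 8.28 ± 0.23 and 7.96 ± 0.22 (SD, n = 3 each). The difference was -0.32 (SE 0.18), with a 95% interval from -0.75 to 0.12 and an unadjusted p of 0.129 from limma. With any single array left out it lay between -0.43 and -0.20, and with array weights it was -0.078.

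Mmp12, macrophage elastase, digests elastin and is made mainly by macrophages. It read 5.65, 6.96 and 6.19 in control replicates 1, 2 and 3 and 5.10, 5.17 and 5.86 in deleted replicates 1, 2 and 3. Control replicates 2 and 3 were above every deleted array, and deleted replicate 3 was above control replicate 1. The control mean was 6.27 ± 0.66 (SD, n = 3) and the deleted mean 5.37 ± 0.42 (SD, n = 3). The difference of -0.89 (SE 0.36) had a 95% interval from -1.74 to -0.05, or a deleted level 0.538 times the control level with limits of 0.300 and 0.966. limma's unadjusted p was 0.0408 and its adjusted p 0.9999, while the exact two-sided permutation test gave p = 0.2. The gene lay below the median signal on all 6 arrays. Without control replicate 2 the difference was -0.55 and limma's unadjusted p 0.121, and without control replicate 1 the difference was -1.20. Leaving out any one of control replicates 2 and 3 or deleted replicates 1 and 2 took its unadjusted p above 0.05.

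**Figure D2:**
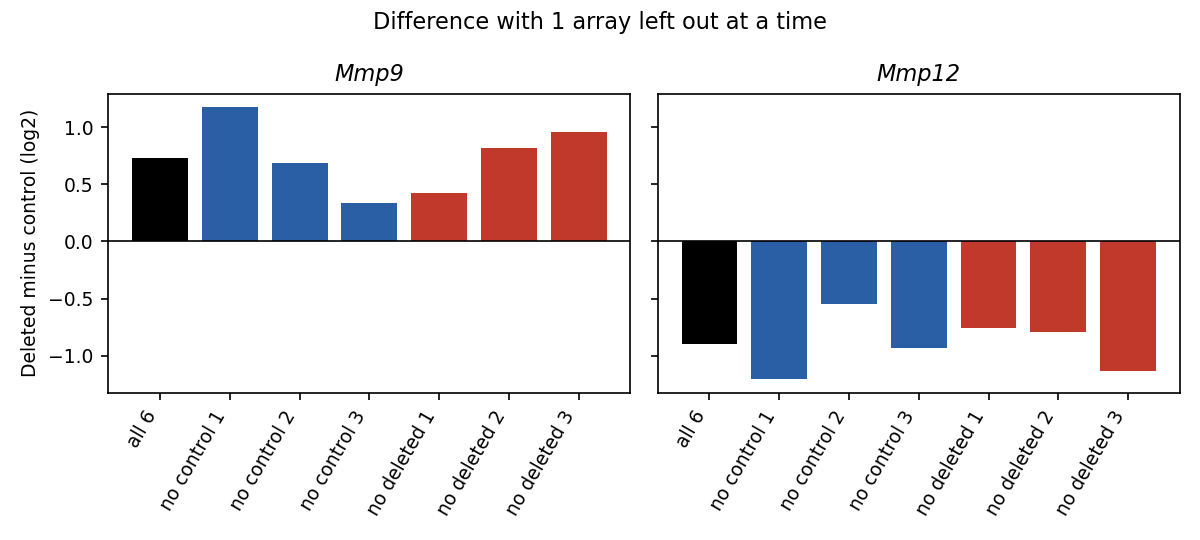
Difference of Mmp9 (left) and Mmp12 (right), deleted minus control (log2, vertical axis), with all 6 arrays (black) and without each control array (blue) or deleted array (red). Mmp9 stays above 0, between 0.34 and 1.18, and Mmp12 stays below 0, between -1.20 and -0.55.

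The collagenases Mmp8 and Mmp13, which cut fibrillar collagen, were dim on every array. Mmp8, stored in the granules of neutrophils, read 3.93, 4.23 and 3.96 in the control arrays and 3.91, 4.61 and 3.79 in the deleted arrays. Mmp13, known from bone and from tumor stroma, read 4.01, 4.27 and 4.66 in the control arrays and 4.28, 4.14 and 4.43 in the deleted arrays. Neither gene set the groups apart. Mmp8 differed by 0.06, with a 95% interval from -0.50 to 0.62, and Mmp13 by -0.03, with an interval from -0.50 to 0.43. At such signals RMA values hold mostly background, and a difference of the transcripts may not have been detectable.

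Mmp14 is a membrane-type MMP that opens the Mmp2 proenzyme at the cell surface and is used by sprouting endothelial cells. Its brightest probe set read 8.93, 8.93 and 8.86 in the control arrays and 9.26, 8.69 and 8.98 in the deleted arrays. The control arrays were nearly equal, and the deleted arrays lay on both sides of them. The difference was 0.07, with a 95% interval from -0.34 to 0.48, and the other 2 probe sets of Mmp14 differed by 0.13 and 0.11. Each of these 3 intervals lay within a 2-fold change in either direction.

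Mmp19 digests components of basement membranes and is known from vascular tissue among others. Its brighter probe set read 8.45, 7.98 and 8.36 in the control arrays and 7.29, 7.89 and 8.55 in the deleted arrays. Deleted replicate 1 was the lowest and deleted replicate 3 the highest of all 6. The difference was -0.35 (SE 0.32), with a 95% interval from -1.10 to 0.40, and the dimmer probe set differed by -0.13. Without deleted replicate 1 the brighter one differed by -0.04, and without deleted replicate 3 by -0.67, at an unadjusted p of 0.036 from limma. With array weights it differed by -0.048.

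**Figure D3:**
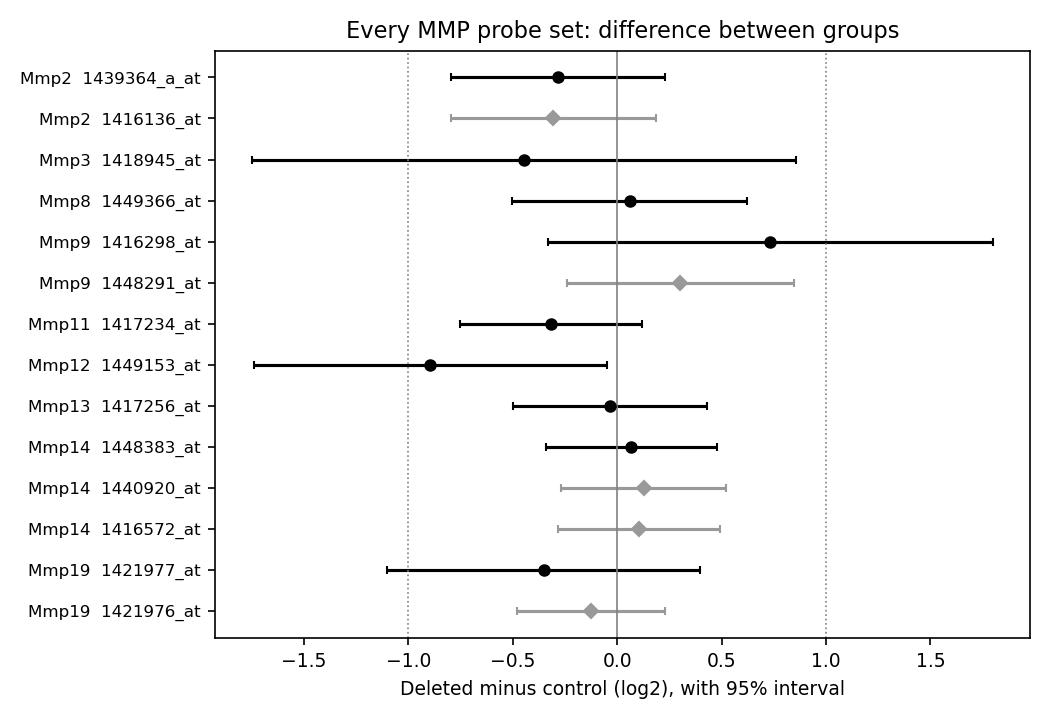
Difference between deleted and control samples (log2, horizontal axis) with its 95% interval for all 14 MMP probe sets, where black circles mark the probe set that represents a gene and grey diamonds the others. Dotted lines mark a 2-fold change. The interval of Mmp12, from -1.74 to -0.05, is the one that does not reach 0, and all probe sets of a gene point the same way.

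Mmp3, Mmp8, Mmp12 and Mmp13 lie together in a cluster of 10 MMP genes on mouse chromosome 9, in the order Mmp13, Mmp12, Mmp1b, Mmp3, Mmp1a, Mmp10, Mmp8, Mmp27, Mmp20 and Mmp7. Of the 9 measured genes of the cluster, 6 had a lower and 3 a higher mean in the deleted group. Mmp12 differed by -0.89 between Mmp13 at -0.03 and Mmp1b at -0.03, but these neighbours were dim, with means of 4.30 and 3.58. At such signals a difference may not have been detectable, so whether neighbours share a difference could not be judged. Mmp3 differed by -0.44 and Mmp10 by -0.28 (-0.09 without control replicate 1), while Mmp20 and Mmp7 differed by 0.13 and 0.16. Without deleted replicate 2 the last 2 turned to -0.02 and -0.04.

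Upstream sequence was read for 7 members, since several MMP promoters are known to hold sites for AP-1 and for Ets factors close together. RefSeq windows on build GRCm38.p6 were matched for Mmp3, Mmp8, Mmp11, Mmp12, Mmp13, Mmp14 and Mmp15, with 2 starts for Mmp12. The 250 bases before each start were searched on both strands for TGAGTCA, a consensus AP-1 site, and for AGGAA, an Ets core with flanking bases. These 2 motifs share no overlap in the windows shown. TGAGTCA was in the windows of 3 of the 7 genes and in 4.46% of 32851 promoters, and AGGAA was in those of 6 of the 7 and in 60.3% of all promoters. Both stood in the same window for Mmp3 and Mmp13, and in 2.82% of all promoters. The last 150 bases before the start are shown for the 3 members with a TGAGTCA match, all of them in the cluster. Capitals mark both motifs, where TGACTCA and TTCCT are matches on the other strand.
Mmp13, chr9:7272364-7272513, plus strand: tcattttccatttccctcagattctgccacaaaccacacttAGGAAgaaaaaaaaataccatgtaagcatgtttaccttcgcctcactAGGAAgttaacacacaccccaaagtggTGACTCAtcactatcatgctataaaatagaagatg
Mmp3, chr9:7445672-7445821, plus strand: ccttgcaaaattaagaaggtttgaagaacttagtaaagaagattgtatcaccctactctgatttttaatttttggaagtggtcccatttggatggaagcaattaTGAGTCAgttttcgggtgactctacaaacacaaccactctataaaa
Mmp12, first start, chr9:7344247-7344396, plus strand: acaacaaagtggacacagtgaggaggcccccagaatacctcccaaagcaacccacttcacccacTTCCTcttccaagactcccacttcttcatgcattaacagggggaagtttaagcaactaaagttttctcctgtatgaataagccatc
Mmp12, second start, 30 bases around its match, chr9:7347318-7347347, plus strand: tgacatcaacagTGAGTCAgatagaggatt

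The TGAGTCA match began 35 bases before the start of Mmp13, 46 before that of Mmp3 and 44 before the second start of Mmp12. The 2 AGGAA matches of Mmp3, at 183 and 174 bases, lie outside the stretch printed. Genes with a TGAGTCA match thus included the member with the lowest difference, Mmp12, as well as Mmp13, which was dim and differed by -0.03. A match of letters says nothing on binding, which was not measured.

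The other MMP genes were mostly dim, and at low signals a difference may not have been detectable. Of 13 listed, 9 had a named probe set, of which 6 had a lower and 3 a higher mean in the deleted group, and 0 reached an unadjusted p under 0.05 in limma, against 1.79% of all genes. The split turned with single arrays, from 2 of 9 lower without control replicate 3 to 8 of 9 without deleted replicate 2. Their differences ran from -0.28 to 0.16, with a median of -0.03. Mmp24, a membrane-type MMP, read 9.40 to 9.98 and differed by 0.06, with a range from -0.08 to 0.20 over the fits with 1 array left out. Mmp23 read 6.97, 7.14 and 8.41 in the control arrays and 7.08, 7.61 and 6.98 in the deleted arrays. Control replicate 3 was the high array, and the difference of -0.28 turned to 0.17 without it.

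Among the inhibitors of MMPs the groups overlapped for 4 of 6 genes. Timp1, Timp2 and Timp3, which block the active enzymes, differed by 0.06, -0.01 and 0.22. None of these 3 kept its direction with each array left out. The ranges were -0.14 to 0.29 for Timp1, -0.13 to 0.13 for Timp2 and -0.09 to 0.47 for Timp3. Over other probe sets Timp2 ran from -0.35 to 0.25 and Timp3 from 0.04 to 0.28. Timp4, found in endothelium and fat, differed by -0.14, with a 95% interval from -1.48 to 1.20. Control replicate 1 read 11.67 and the other 5 arrays 9.51 to 10.41, and without that array the difference was 0.56. A second probe set of Timp4 differed the other way, by 0.14. Reck, a membrane-anchored inhibitor of several MMPs, read 8.80, 8.84 and 8.91 in the control arrays and 8.51, 8.75 and 8.69 in the deleted arrays. All its deleted arrays lay below all control arrays, as was so for 2.7% of all genes, yet the gap was narrow. The difference of -0.19 had a 95% interval from -0.51 to 0.13 and was -0.12 without deleted replicate 1. Pzp, an alpha-macroglobulin protease trap, was dim and differed by 0.27 (0.18 without deleted replicate 1), again without overlap, as was so in that direction for 3.36% of all genes. Of the 6 inhibitors with a named probe set, 3 were lower and 3 higher. At an unadjusted p under 0.05 in limma stood 0 of them, against 1.79% of all genes.

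Among 12 activators and docking proteins, 6 were lower and 6 higher in the deleted group, with a median difference of -0.01. Plaur, the receptor that gathers urokinase at the cell surface and so starts plasmin formation, read 8.24, 8.31 and 8.11 in the control arrays and 8.63, 8.58 and 8.59 in the deleted arrays. All deleted arrays lay above all control arrays, as was so for 1 of the 12 genes here and for 3.36% of all genes. The difference was 0.38 (SE 0.13), with a 95% interval from 0.07 to 0.69, and it lay between 0.33 and 0.43 with any array left out. Its unadjusted p of 0.021 from limma was the 1 in this list under 0.05, where 0.72% of all genes were higher at that level, and its adjusted p was 0.9999. Plat, the tissue plasminogen activator made by endothelium, differed by 0.31 with overlap, and Plau, urokinase itself, by -0.03. Furin, which opens the proenzymes of Mmp11 and Mmp14, differed by 0.02. With 1 array left out Plau ranged from -0.14 to 0.10 and Furin from -0.06 to 0.10. A second probe set of Plau differed by 0.30 and that of Plat by 0.10. Pcsk5, a related convertase, differed by -0.46, which shrank to -0.18 without control replicate 3. The docking proteins Cd44, a hyaluronan receptor that can hold Mmp9 at the cell surface, and Lcn2, which binds Mmp9 in neutrophils, differed by -0.14 and -0.16. Cd44 ranged from -0.52 to 0.13 with 1 array left out, and Lcn2 shrank to -0.07 without deleted replicate 1. Other probe sets of Cd44 differed by -0.06, 0.01 and 0.10.

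**Figure D4:**
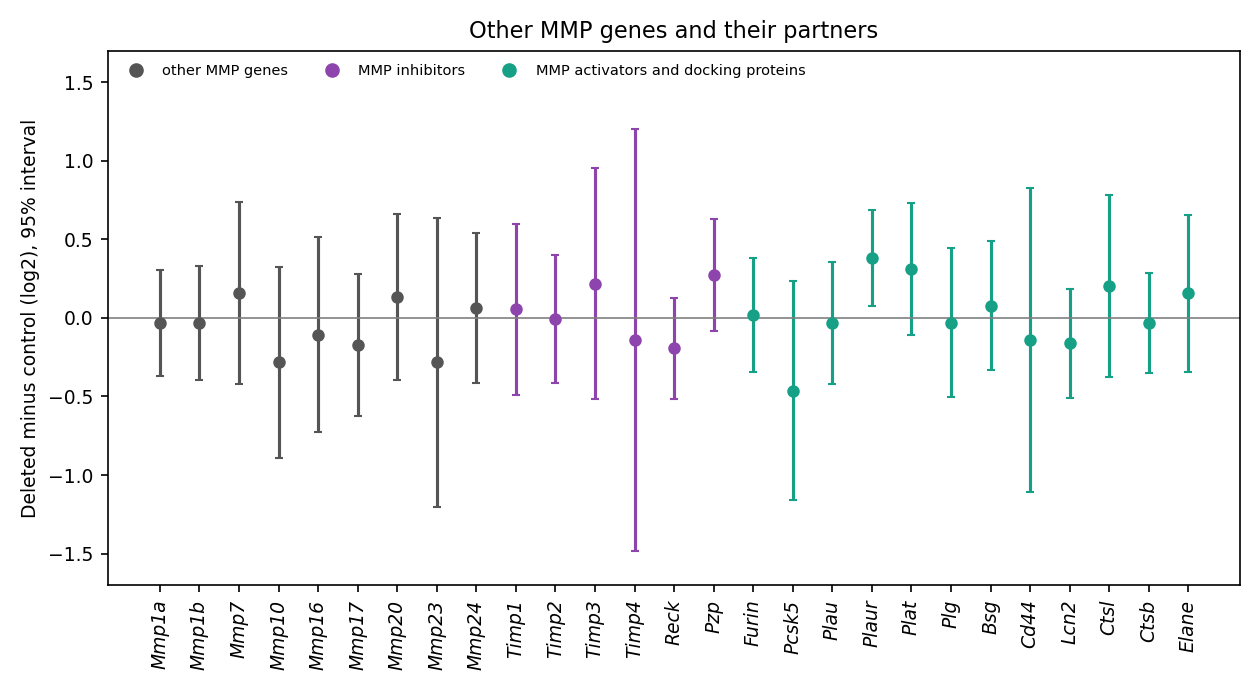
Difference between deleted and control samples (log2, vertical axis) with its 95% interval for other MMP genes (grey), MMP inhibitors (purple) and MMP activators and docking proteins (green). The interval of Plaur, from 0.07 to 0.69, lies above 0 and all others reach it.

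Markers of some cells known to make MMPs had mostly lower means in the deleted samples, and 0 markers of any list passed limma at an adjusted p under 0.05. Of 15 macrophage markers 13 were lower in the deleted samples, with a median difference of -0.65, and 6 were lower at an unadjusted p under 0.05 in limma, against 1.07% of all genes. Without control replicate 3 the median was -0.42, with 14 lower and 4 at that p, and without deleted replicate 3 only 1 was at that p. Their summed level, the mean signal over the list, ran from 8.86 to 9.18 in the control and from 8.25 to 8.66 in the deleted arrays. Adgre1, which encodes F4/80, differed by -0.91, Cd68 by -0.36 and Csf1r, the receptor for macrophage colony-stimulating factor, by -0.87. However, Csf1r differed by -0.32 without control replicate 3 and Adgre1 by -0.56 without deleted replicate 3. Other probe sets of Csf1r differed by -0.78 and -0.23. The macrophage markers and Mmp12 had lower means in the same group but not the same order of arrays, as control replicate 3 had the highest macrophage level and control replicate 2 the highest Mmp12. Their part in the Mmp12 difference was not tested. Each of the 12 fibroblast markers had a lower mean, and the median difference was -0.48. Their level ran from 9.35 to 9.74 in the control and from 8.91 to 9.13 in the deleted arrays. With 1 array left out the median ran from -0.54 to -0.35, and 10 of the 12 were lower without control replicate 1. With the mean over the probe sets of a gene the median was -0.34. Mmp2, Mmp3 and Mmp11, which fibroblasts make, also had lower means. Mmp3 turned to 0.13 without control replicate 1, and with array weights Mmp2 and Mmp3 turned to 0.081 and 0.23. Mmp13, known from tumor stroma, differed by -0.03, and Mmp14 was higher by 0.07. The part of fibroblast RNA in these differences was not tested.

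Mmp9 had a higher mean, unlike these lists. Of 10 neutrophil markers with a named probe set, 5 were lower and 5 higher, with a median of -0.04 that became 0.17 without control replicate 3, and their level was 6.99 to 7.45 in the control and 7.12 to 7.30 in the deleted arrays. S100a8 and S100a9, calcium-binding proteins abundant in neutrophils, differed by -0.37 and 0.78, and Csf3r, the receptor for granulocyte colony-stimulating factor, by -0.23. With 1 array left out these shrank to -0.16 for S100a8 (deleted replicate 1), 0.50 for S100a9 (control replicate 1) and -0.03 for Csf3r (control replicate 3). Of the 10 neutrophil markers, 4 lay above the median signal. The neutrophil granule genes Mpo and Elane, chosen after their values were seen, were dim on all arrays. They read 4.07 to 5.19 and 3.84 to 4.65 and do not stand for the list. The 8 pan-leukocyte markers all had lower means, with a median of -0.45 that shrank to -0.23 without control replicate 3. Marco, a scavenger receptor of some macrophages, was also chosen after its values were seen, so that its likeness to Mmp9 is by selection. Of the 15 macrophage markers 13 had a lower mean, and Marco was 1 of the 2 with a higher mean. It read 9.32, 7.87 and 6.75 in the control arrays and 9.12, 7.96 and 7.77 in the deleted arrays, so that control replicate 1 and deleted replicate 1 were high, as for Mmp9, and it differed by 0.30, with a range from -0.31 to 0.97 over the fits with 1 array left out. The part of any of these cells in the Mmp9 difference was not tested.

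**Figure D5:**
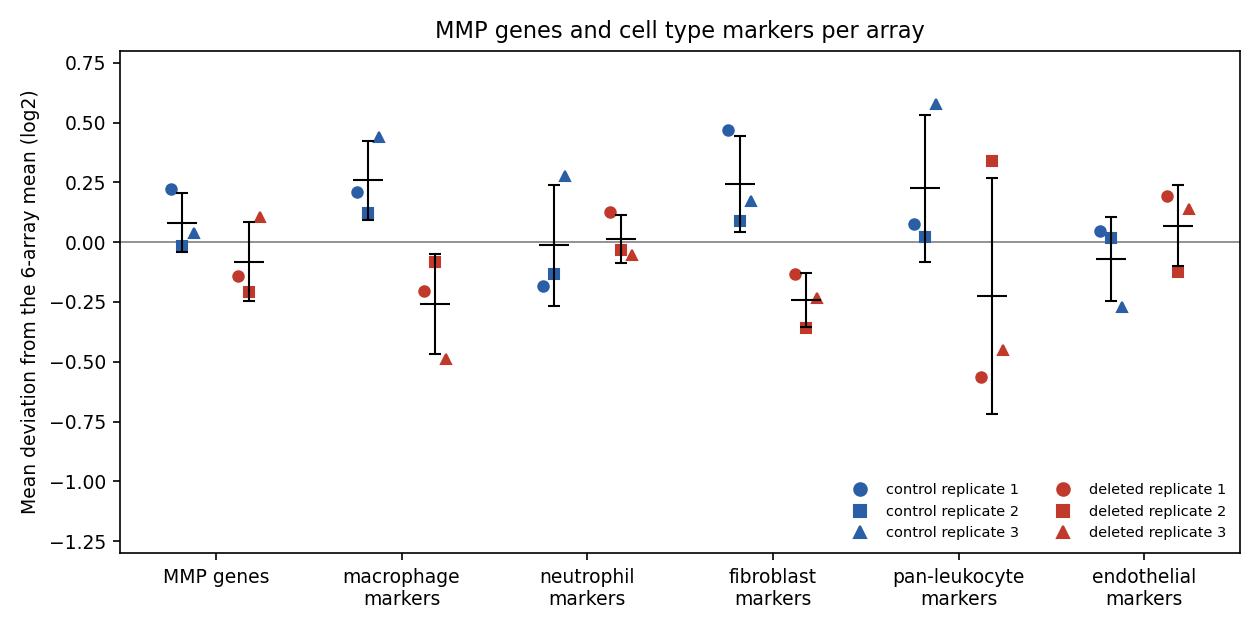
Mean deviation from the mean of the 6 arrays (log2, vertical axis) of the 9 MMP genes and of 5 marker lists, with control arrays in blue, deleted arrays in red, a different marker shape for each replicate, and black bars giving mean ± SD over the 3 arrays of a group. The macrophage and fibroblast lists are apart, with control arrays at 0.12 to 0.44 and 0.09 to 0.47 and deleted arrays at -0.49 to -0.08 and -0.36 to -0.13, whereas the MMP genes, at -0.02 to 0.22 and -0.21 to 0.10, overlap.

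The pattern of Mmp9 over the 6 arrays was shared most closely by Smim11, Hic2, Spib, Pea15a and Kcnh3 among 11287 genes compared. Pearson's r with Mmp9 was 0.994 for Smim11, 0.987 for Hic2, Spib and Pea15a and 0.986 for Kcnh3. These values describe 6 arrays, where the highest of so many correlations is high by selection. Spib, an Ets family factor of B cells and plasmacytoid dendritic cells, read 8.41, 7.44 and 7.02 in the control arrays and 8.78, 7.89 and 7.81 in the deleted arrays. As for Mmp9, deleted replicate 1 was the highest and control replicate 3 the lowest. Spib differed by 0.53 and Smim11 by 0.43, and the groups of all 5 genes overlapped.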

How the data were processed

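RNA of 6 CD31-sorted samples was hybridized to Affymetrix mouse genome arrays, 1 per sample. The authors deposited log2 values made by RMA, as the submitters' processing notes also name it, which subtracts background, applies quantile normalization and summarizes the probes of a probe set. No version of RMA was given in the sources used here. Array medians lay between 7.02 and 7.07. RMA narrows differences of dim probe sets, and the number of arrays limits the precision, with 95% intervals that reached a median of 0.45 to either side.

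After 64 array controls were left out of 45101 probe sets, the remaining 45037 entered lmFit and eBayes of limma 3.58.1 (R 4.3.3) without covariates, as two-sided tests with Benjamini-Hochberg adjustment over all of them. The step was tested on simulated data, where the planted changes were larger than any difference of a member. That test does not show whether changes of the size seen here would be found. The study's thresholds were a fold change over 2 and P under 0.05. The platform annotation named 1 gene for 34945 probe sets, several for 932 and none for 9160. Of the first, 34741 matched RefSeq by gene number. Each gene was represented by its probe set with 1 gene and the highest mean over the 6 arrays. Single members were also tested by exact permutation of the arrays. Groups came from titles and genotypes, and the study calls the samples biological replicates.

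The members, gene lists and tests were chosen with earlier results of these data known. The rule for named genes took all members, the 3 lists of other MMP genes, inhibitors and activators, the first 3 genes of each marker list, and the 5 genes above the median signal most correlated with Mmp9. Lists are given by counts and medians only. The fit was repeated with array weights, with a trended robust prior, after median centring or another quantile normalization, without dim probe sets, with the identifier number as a block (fixed or random), unmoderated, with other probe set choices and without each array.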

Additional observations from a re-analysis of the deposited data

How the results depend on the processing

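Over the alternatives, 149 member differences were recomputed. Of these 139 kept their direction and 0 passed an adjusted p under 0.05. Mmp9 remained positive and Mmp12, Mmp11 and Mmp19 negative in all that were run, although Mmp11 was -0.078 and Mmp19 -0.048 with array weights. With array weights, which gave control replicate 2 a weight of 8.32 against 0.38 to 0.99 for the other arrays, Mmp2, Mmp3, Mmp8 and Mmp13 turned to 0.081, 0.23, -0.17 and 0.047, and 1 member, Mmp12 at -1.38, passed a fold of 2 with an unadjusted p under 0.05, against 0.22% of all genes. In unmoderated tests with equal or unequal variances 0 members were at an unadjusted p under 0.05, against 2.37% and 1.58% of all genes. With 1 array left out, the members at that p numbered 0 to 2 (Mmp9 and Mmp12 without control replicate 1, Mmp12 and Mmp19 without deleted replicate 3, Mmp2 without control replicate 2), against 1.37% to 3.24% of all genes. Those past a fold of 2 as well numbered 0 to 2 (all genes 0.104% to 0.385%), those without overlap 0 to 4 (all genes 11.9% to 19.1%, and 16.2% without deleted replicate 3, the setting with 4 members) and those at an exact permutation p of 0.1 0 to 1 (all genes 5.04% to 8.45%). Of these 54 member differences 5 turned, and the ranges were -0.87 to 0.13 for Mmp3, -0.19 to 0.22 for Mmp8, -0.18 to 0.14 for Mmp13 (0.038 without deleted replicate 2) and -0.074 to 0.21 for Mmp14. Medians ranged from -0.65 to -0.42 for macrophage and -0.10 to 0.17 for neutrophil markers. Pericyte and smooth muscle markers had a median of 0.21 (0.035 without deleted replicate 3 to 0.36 without control replicate 1), epithelial markers -0.17 (-0.30 without deleted replicate 2 to -0.028 without control replicate 3) and endothelial markers 0.11 (0.037 without deleted replicate 1 to 0.26 without deleted replicate 2). With the mean over the probe sets of a gene the macrophage median was -0.40. A change of the background correction was not run.

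The sample identifiers share 2 numbers between the groups. What the numbers mark is not stated. Deviations of arrays with the same number correlated at 0.17 and -0.02, and with fewer than 3 pairs the arrays were treated as unpaired. A replicate block of that number, which rests on these 2 pairs, gave 2 members at an unadjusted p under 0.05 from limma, Mmp9 at 0.57 and Mmp12 at -1.17, where 6.29% of all genes were at that p, and 1 of them past a fold of 2, against 0.368% of all genes. In this block Mmp3 was -1.10, Mmp19 -0.62, Mmp2 -0.15 and Mmp8 0.18, and Mmp13 turned to 0.069. The cause of these shifts was not tested.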
